A study of Mus musculus with 30 samples.

Results

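Lipid droplets, the stores of neutral lipid in hepatocytes, were followed through the mRNAs of 10 proteins that sit on them or build and consume them: *Plin2*, *Plin3*, *Plin4*, *Plin5*, *Cidea*, *Cideb*, *Cidec*, *G0s2*, *Pnpla2* and *Fitm2*. The members were taken by symbol and make up 10 of the 55450 gene rows of the count table. Livers of male mice fed HFCFD, a diet rich in fat, cholesterol and fructose, were compared between genotypes in 3 experiments. An experiment had 5 Cre- mice, written *Cebpa* fl/fl, and 5 Cre+ knockouts, which gives 6 groups and, at 1 library of poly(A) RNA from each liver, 30 libraries. All mice carried the floxed *Cebpa* allele. In HFCFD2W the mice had 2 weeks of HFCFD and the knockouts were *Cebpa* ΔHep, in which an albumin promoter drives Cre in hepatocytes from early life. In HFCFD8W+T10D, labelled with 8 weeks of HFCFD and 10 days of tamoxifen, and in HFCFD12W+T10W, with 22 weeks of HFCFD and tamoxifen over the last 10 weeks, the knockouts were *Cebpa* ΔHep,ERT2, in which tamoxifen switches the albumin-driven Cre on in the adult. The treatment label is the same for both genotypes of an experiment. The age of these mice is not given in the sources used here, and the series' design text calls the 3 experiments separate batches, so that diet time, tamoxifen, Cre strain and batch cannot be told apart between experiments.

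A droplet forms when triglyceride collects between the leaflets of the endoplasmic reticulum membrane and buds into the cytosol, where a phospholipid monolayer and a coat of proteins cover it. Perilipins (PLIN proteins) bind that surface and limit the access of lipases, and the CIDE proteins let droplets exchange lipid so that 1 grows at the cost of another. PNPLA2 (adipose triglyceride lipase) starts triglyceride breakdown, G0S2 inhibits it, and FITM2 is an endoplasmic reticulum protein needed for normal droplet budding. In the liver, PLIN2 is the perilipin that marks fatty hepatocytes, whereas CIDEA and PLIN4 are best known from adipose tissue.

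The sequences just upstream of 4 members are shown because these genes carry the genotype differences described further on: *Plin4*, *Fitm2* and *G0s2* were lower in knockout livers and *Plin5* was higher in 1 experiment. They come from RefSeq on GRCm38.p6, all on the minus strand and read 5′ to 3′, and cover the bases that lie before RefSeq's start and outside the annotated gene. Capitals mark a match to AGGTCA, the site that nuclear receptors bind. Letters in lower case matched none of the motifs searched.
Plin4: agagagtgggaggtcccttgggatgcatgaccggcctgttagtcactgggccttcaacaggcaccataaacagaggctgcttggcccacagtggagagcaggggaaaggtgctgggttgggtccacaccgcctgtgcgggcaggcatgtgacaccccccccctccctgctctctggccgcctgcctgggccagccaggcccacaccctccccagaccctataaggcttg
Fitm2: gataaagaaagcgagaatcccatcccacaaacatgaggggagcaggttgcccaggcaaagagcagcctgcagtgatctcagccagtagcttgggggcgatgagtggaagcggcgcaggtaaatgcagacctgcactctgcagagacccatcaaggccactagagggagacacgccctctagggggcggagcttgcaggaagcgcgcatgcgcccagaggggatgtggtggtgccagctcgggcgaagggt
G0s2: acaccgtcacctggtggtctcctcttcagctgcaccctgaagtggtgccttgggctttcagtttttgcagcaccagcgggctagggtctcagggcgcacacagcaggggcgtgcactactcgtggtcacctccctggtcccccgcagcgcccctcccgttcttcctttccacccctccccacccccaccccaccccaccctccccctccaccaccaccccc
Plin5: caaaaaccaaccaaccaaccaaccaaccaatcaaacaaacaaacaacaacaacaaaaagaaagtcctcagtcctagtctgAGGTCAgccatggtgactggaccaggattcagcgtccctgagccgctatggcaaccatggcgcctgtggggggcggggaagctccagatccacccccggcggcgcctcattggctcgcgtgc
These stretches are chr17:56109804-56110032 for *Plin4*, chr2:163472630-163472879 for *Fitm2*, chr1:193273218-193273438 for *G0s2* and chr17:56117597-56117798 for *Plin5*. The motifs TTGCGCAA and TTNNGCAA (the palindrome bound by C/EBP proteins and a looser form of it), AGGTCA, and DR1, a tandem pair of loose AGGTCA sites 1 base apart, were searched on both strands of 11 windows of 300 bases (250 before and 50 after the start) for the 9 members with an entry. Each TTGCGCAA is also a TTNNGCAA. Among all 32851 windows, TTGCGCAA was found in 0.183%, TTNNGCAA in 10.8%, AGGTCA in 16.3% and DR1 in 0.381%. *Plin5* held AGGTCA at position -170 of the window shown and at position 14 of a second window, *Plin2* held it on the other strand at -218, and a second *Cidec* window held the TTNNGCAA match TTGCTCAA on the other strand at -198. The windows of *Plin3*, *Plin4*, *Cideb*, *G0s2*, *Pnpla2* and *Fitm2* held none of these letters, which says nothing about binding elsewhere.

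Libraries held 7996128 to 10257366 expected counts. *Cebpa* was the check on the labels. Its mean fell from 177 ± 17.7 to 4.74 ± 0.903 CPM (SD, n = 5) in HFCFD2W, from 144 ± 13.4 to 17.2 ± 5.93 CPM in HFCFD8W+T10D and from 114 ± 23 to 21.3 ± 1.97 CPM in HFCFD12W+T10W. CPM relate a gene's counts to its library total, which was adjusted with edgeR's TMM factors so that most genes center on no change. No mouse overlapped the other genotype, and the exact two-sided permutation p was 0.00794 in each experiment, the smallest that 5 against 5 mice allow. Bulk liver mixes cell types. In HFCFD12W+T10W the summed level of 10 hepatocyte markers had a median of 102492 CPM in *Cebpa* fl/fl and 56710 CPM in knockout livers. Most of that sum was *Alb* (mean 77545 to 35080 CPM). The sum of 10 cholangiocyte markers went from 65.2 to 782 CPM, most of it *Spp1* (mean 46 to 801 CPM). The paper places the rise of *Spp1* mostly in hepatocytes, in *Cebpa* ΔHep mice after 2 weeks of HFCFD. That sum is therefore not read as an amount of cholangiocytes, and it went from 51.4 to 582 CPM in HFCFD2W. In HFCFD12W+T10W the sums went from 558 to 779 CPM for 10 macrophage markers and from 332 to 654 CPM for 10 stellate cell markers. They went from 21.5 to 71.8 CPM for 10 leukocyte markers and from 262 to 207 CPM for 10 endothelial markers. In HFCFD8W+T10D the hepatocyte sum went from 131688 to 67517 CPM and in HFCFD2W from 118881 to 155008 CPM. *Alb* again made up most of it, with means of 96091 and 49641 CPM in HFCFD8W+T10D and of 84748 and 101316 CPM in HFCFD2W. Of the hepatocyte markers, 6 of 10 fell in HFCFD12W+T10W, where 23.8% of all genes tested fell. In HFCFD8W+T10D 4 of 10 fell, beside 6.85% of genes, and in HFCFD2W 1 of 10 rose, beside 8.6% of genes. In HFCFD12W+T10W, 9 of 10 stellate cell, 9 of 10 cholangiocyte, 6 of 10 macrophage and 6 of 7 leukocyte markers tested rose, where 27.4% of genes did. There 2 macrophage markers, 1 cholangiocyte marker and 3 of 10 endothelial markers fell. In HFCFD8W+T10D, 6 of 10 macrophage, 4 of 8 cholangiocyte, 3 of 5 leukocyte and 1 of 10 stellate cell markers tested rose, beside 10.3% of genes. In that experiment 1 cholangiocyte and 1 endothelial marker fell. In HFCFD2W, 2 of 10 stellate cell, 2 of 8 macrophage and 1 of 4 cholangiocyte markers tested rose, beside 8.6% of genes. Fewer cells of a type and less RNA per cell cannot be told apart in such libraries, and the part of cell mixture in the results was not tested.

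Per transcript length, *Plin2* and *Cideb* stood far above the other members. In the *Cebpa* fl/fl livers of HFCFD2W, *Plin2*, which encodes the main perilipin of hepatocytes, was at 250 ± 29.6 TPM (transcripts relative to the sum of all, scaled by length; SD, n = 5) and *Cideb*, the CIDE gene of hepatocytes, at 243 ± 5.35 TPM, and their ranges over mice overlapped. *G0s2* followed with 77.0 ± 33.2 TPM and *Pnpla2* with 33.8 ± 3.57 TPM, again with overlapping ranges. Below them came *Fitm2* with 19.7 ± 2.5, *Plin5* with 13.9 ± 2.01, *Plin3* with 8.07 ± 1.22, *Cidec* with 2.52 ± 0.760 and *Plin4* with 0.634 ± 0.336 TPM, each with a range apart from that of the gene before it. *Cidea* was last at 0.198 ± 0.159 TPM, and its range overlapped that of *Plin4*. *Plin2* and *Cideb* together held 76.0% of the summed mean TPM of the 10 members there, and 68.7% in the *Cebpa* fl/fl livers of HFCFD12W+T10W.

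In the *Cebpa* fl/fl livers of HFCFD12W+T10W the first 4 members came in the same order. *Plin2* was at 254 ± 54.5 and *Cideb* at 218 ± 22.6 TPM, *G0s2* at 57.8 ± 19.8 and *Pnpla2* at 56.8 ± 3.84 TPM, and *Plin5* at 34.8 ± 14.9 and *Fitm2* at 31.6 ± 1.56 TPM, each pair with overlapping ranges. *Cidec* (10.2 ± 12.6), *Cidea* (8.70 ± 11.9), *Plin3* (8.26 ± 1.59) and *Plin4* (7.09 ± 3.04 TPM) overlapped in range. In the knockout livers of that experiment, *Plin2* stood alone at 398 ± 41.4 TPM above *Cideb* at 227 ± 11.8 TPM and made up 50.7% of the sum of the 10 members. *Plin4* had 2.07 ± 0.594 and *Cidea* 0.482 ± 0.415 TPM in the same livers, at the bottom of the order.

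**Figure D1:**
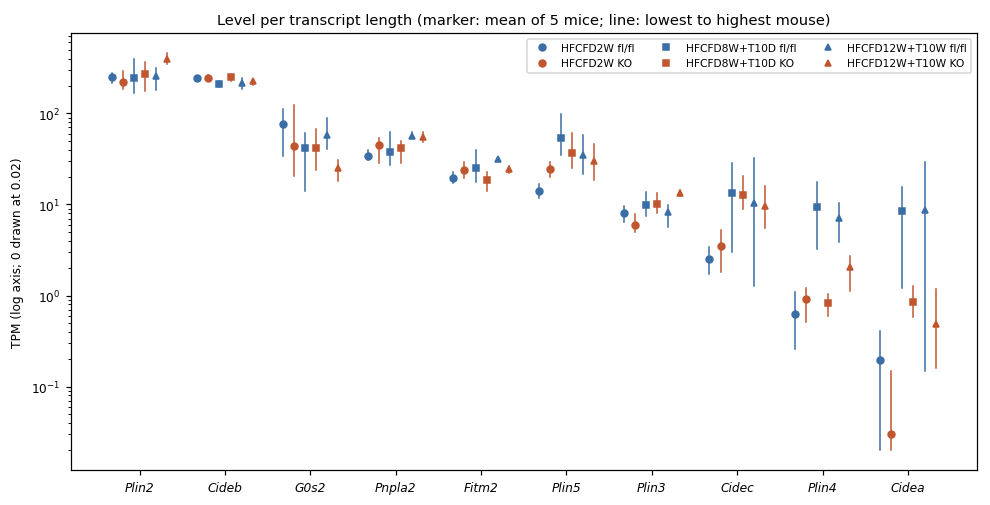
Level of each member per transcript length (TPM, log axis, values of 0 drawn at 0.02) in the 6 groups; markers are means of 5 mice and lines run from the lowest to the highest mouse. *Plin2* and *Cideb* stay near the top in every group, whereas *Cidec*, *Plin4* and *Cidea* lie lowest in HFCFD2W and higher in the *Cebpa* fl/fl livers of the other experiments.

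The genotype comparison asks which droplet mRNAs differ between knockout and *Cebpa* fl/fl livers, and it was made within each experiment. Of the 10 members, 9 had enough counts for edgeR's quasi-likelihood test in each experiment, and *Cidea* did not. A member is said to have risen or fallen at a Benjamini-Hochberg adjusted p under 0.05 over all genes tested. In HFCFD2W, 1 of 9 members rose (*Plin5*) and 1 fell (*Plin3*), where 8.6% of the 11068 genes tested rose and 8.09% fell. In HFCFD8W+T10D, 2 of 9 fell (*Plin4* and *Fitm2*), where 6.85% of 11990 genes fell, and 1 of them, *Plin4*, fell over 2-fold, as did 2.01% of genes. None rose there, by edgeR or by DESeq2, with 0 members higher at an unadjusted p under 0.05 and 10.3% of all genes higher. In HFCFD12W+T10W, 5 of 9 fell (*Plin4*, *G0s2*, *Fitm2*, *Pnpla2* and *Cideb*), where 23.8% of 12463 genes fell, and 2 of them, *Plin4* and *G0s2*, fell over 2-fold, as did 3.47% of genes. None rose by edgeR or DESeq2, with 1 member (*Plin3*) higher at an unadjusted p under 0.05 and 27.4% of all genes higher.

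These directions are relative to TMM scaling, which placed the median gene of each experiment at 0.007 to 0.013 on the log2 scale. With library totals alone the median gene stood 0.38 higher in knockout livers of HFCFD12W+T10W and 0.19 higher in those of HFCFD8W+T10D on the log2 scale. The split of genes that passed then became 7049 higher and 962 lower, against 3411 and 2960 with TMM, in HFCFD12W+T10W, and 2023 higher and 382 lower, against 1231 and 821, in HFCFD8W+T10D. Ratios of mean TPM carried a like shift, 0.37 for the median gene of HFCFD12W+T10W, 0.23 for HFCFD8W+T10D and 0.12 for HFCFD2W. In HFCFD12W+T10W the falls of *Plin4*, *G0s2* and *Fitm2* passed with library totals alone too, and those of *Cideb* and *Pnpla2* did not.

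**Figure D2:**
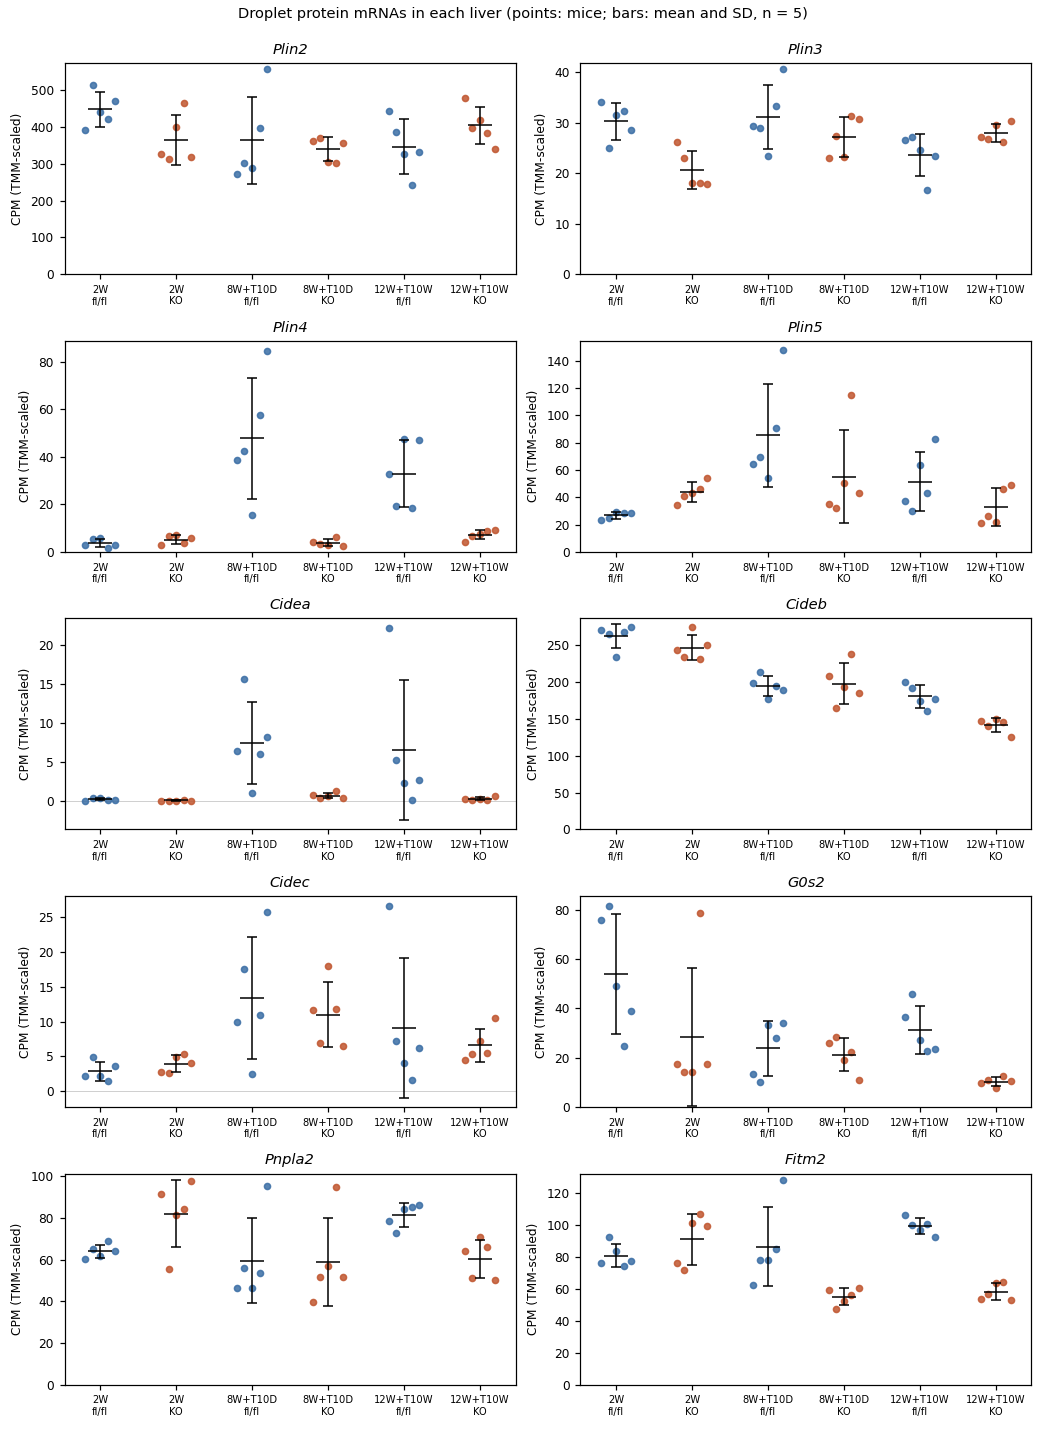
CPM of each member in every mouse (points, blue for *Cebpa* fl/fl and orange for knockout), with the mean and SD of 5 mice. In HFCFD8W+T10D and HFCFD12W+T10W every knockout lies below every *Cebpa* fl/fl mouse for *Plin4*, whereas for *Cidea* the lowest control of each lies among the knockouts.

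**Figure D3:**
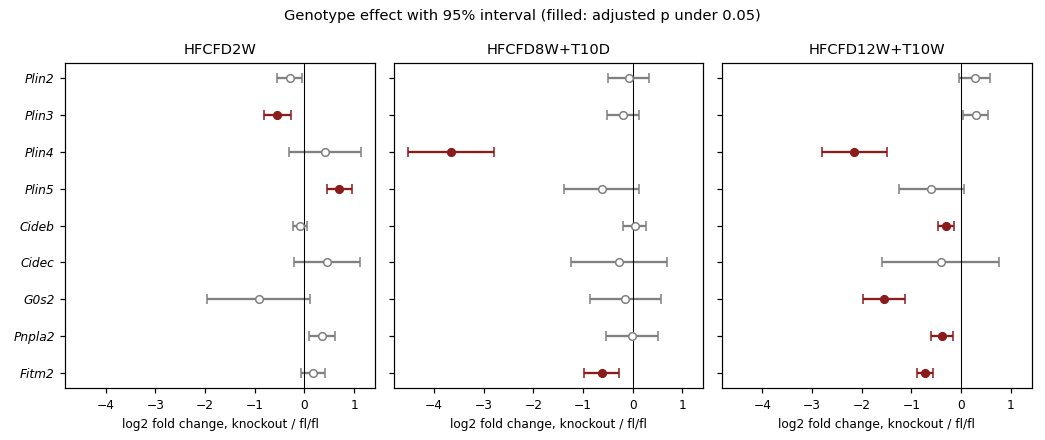
Log2 fold change of knockout over *Cebpa* fl/fl livers from edgeR, with 95% intervals, for the 9 members tested (filled symbols: adjusted p under 0.05). *Plin4* lies at 0.41 in HFCFD2W and at -3.66 and -2.15 in HFCFD8W+T10D and HFCFD12W+T10W.

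Among the perilipins, *Plin4*, whose protein coats small droplets of adipocytes through a long repeat of amphipathic helix, had the largest genotype difference of the 9 members tested in both tamoxifen experiments. The gene lies on chromosome 17 (56100591 to 56109803, minus strand, GRCm38, ENSMUSG00000002831.13). In HFCFD8W+T10D the *Cebpa* fl/fl mice held 15.6, 38.8, 42.6, 57.7 and 84.8 CPM and the knockouts 2.47, 2.82, 3.37, 4.12 and 6.17 CPM. Every knockout was below every *Cebpa* fl/fl mouse, and the lowest control stood well under the other 4. *Plin4* fell 12.7-fold (log2 fold change -3.66, SE 0.40, adjusted p = 8.3e-05). In HFCFD12W+T10W the *Cebpa* fl/fl mice held 18.6, 19.3, 32.7, 46.95 and 47.45 CPM and the knockouts 4.01, 6.84, 7.52, 8.57 and 9.145 CPM. The genotypes again did not overlap, and *Plin4* fell 4.44-fold (log2 fold change -2.15, SE 0.30, adjusted p = 7.2e-05). In HFCFD2W the gene was low in both genotypes, at 3.78 ± 1.80 and 5.095 ± 1.87 CPM (SD, n = 5), and the difference did not pass (log2 fold change 0.41, 95% interval -0.31 to 1.14, adjusted p = 0.438). Its span shares 17 bases with *Hdgfl2* on the other strand.

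*Plin4* and *Cidea* are abundant in fat cells, so the adipocyte markers were read beside them. *Adipoq*, *Lep*, *Retn*, *Plin1* and *Slc36a2* were at 0 counts in all 30 libraries. The summed level of the 9 adipocyte markers in the table ran from 13.5 to 51 CPM in *Cebpa* fl/fl and from 11 to 29.1 CPM in knockout livers of HFCFD8W+T10D, and from 7.81 to 23.9 and 11.9 to 17.6 CPM in HFCFD12W+T10W, and came mostly from *Cfd* and *Fabp4*. *Cfd*, which encodes the complement factor adipsin, went in mean from 13 to 0.702 CPM in HFCFD8W+T10D, from 9.41 to 0.321 CPM in HFCFD12W+T10W and from 8.38 to 2.18 CPM in HFCFD2W, where *Plin4* went from 3.78 to 5.095 CPM. *Fabp4*, a fatty acid carrier of adipocytes and macrophages, went from 14.7 to 15.7 and from 7.85 to 13.6 CPM. Of the 2 markers with enough counts, 1 fell in HFCFD8W+T10D, and 1 fell and 1 rose in HFCFD12W+T10W.

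*Plin5*, the perilipin of tissues that burn fat, which ties droplets to mitochondria, lies beside *Plin4* (chromosome 17, 56111601 to 56117596, minus strand). It was the only member of the 9 tested that rose in HFCFD2W. The *Cebpa* fl/fl mice held 23.3, 24.8, 28.2, 28.7 and 28.9 CPM and the *Cebpa* ΔHep mice 34.55, 40.85, 43.25, 45.7 and 54.1 CPM. Every knockout was above every control, and *Plin5* rose 1.63-fold (log2 fold change 0.70, SE 0.11, adjusted p = 0.00108). The call was lost in the joint fit of all 30 libraries, in which all groups share 1 dispersion (log2 fold change 0.70, adjusted p = 0.163). In the tamoxifen experiments the knockout means were lower and the mice overlapped. HFCFD8W+T10D had 53.9 to 148 CPM in *Cebpa* fl/fl mice (median 69.1) and 31.8 to 115 CPM in knockouts (median 43.0), with 4 of 5 knockouts below every control. The difference did not pass (log2 fold change -0.63, 95% interval -1.39 to 0.13, adjusted p = 0.247). Without knockout replicate 4, the mouse at 115 CPM, it did (-1.08, adjusted p = 0.0138). HFCFD12W+T10W had 30.3 to 82.6 CPM in controls and 21.01 to 49.1 CPM in knockouts, and the difference did not pass (log2 fold change -0.61, 95% interval -1.26 to 0.05, adjusted p = 0.114).

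*Plin3*, a perilipin found in the cytosol that moves onto nascent droplets, showed the opposite sign to *Plin5* in HFCFD2W. Controls held 24.9, 28.5, 31.6, 32.3 and 34.1 CPM and *Cebpa* ΔHep mice 17.9, 18.02, 18.1, 23 and 26.15 CPM. All but 1 knockout were below every control, and *Plin3* fell 1.46-fold (log2 fold change -0.55, SE 0.12, adjusted p = 0.010). In HFCFD8W+T10D it was at 31.2 ± 6.38 and 27.1 ± 3.98 CPM in the 2 genotypes (log2 fold change -0.19, 95% interval -0.51 to 0.13, adjusted p = 0.417). In HFCFD12W+T10W it was at 23.7 ± 4.20 and 28.02 ± 1.75 CPM and just missed the threshold in the other direction (log2 fold change 0.29, 95% interval 0.04 to 0.54, adjusted p = 0.0516). Without *Cebpa* fl/fl replicate 1 or 2 it passed (0.31 and 0.32, adjusted p = 0.0495 and 0.0415), as it did with library totals alone (0.66, adjusted p = 0.00068).

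*Plin2*, the most abundant member per length in 5 of the 6 groups, passed in no experiment. Its values were 392 to 515 CPM in *Cebpa* fl/fl and 313 to 467 CPM in *Cebpa* ΔHep mice of HFCFD2W (log2 fold change -0.30, 95% interval -0.55 to -0.04, adjusted p = 0.113). There 3 of 5 knockouts were below every control, and without knockout replicate 5, the highest of them, the difference passed (-0.40, adjusted p = 0.0197). In HFCFD8W+T10D controls ran from 272 to 559 CPM and knockouts from 302 to 371 CPM, wholly inside that range (log2 fold change -0.08, 95% interval -0.49 to 0.32, adjusted p = 0.805). In HFCFD12W+T10W controls ran from 243 to 444 CPM and knockouts from 341 to 479 CPM (log2 fold change 0.27, 95% interval -0.04 to 0.58, adjusted p = 0.136). Without *Cebpa* fl/fl replicate 1 the last difference was 0.35 with an adjusted p of 0.046, and with library totals alone it was 0.63 with an adjusted p of 0.00213. The mean TPM of *Plin2* was 0.65 higher on the log2 scale in those knockouts, of which 0.28 remained beyond the shift of the median gene.

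Of the CIDE genes, *Cidea*, known for growing the droplets of brown fat and of fatty liver, was lower in knockout livers of both tamoxifen experiments. In HFCFD8W+T10D the *Cebpa* fl/fl mice held 0.927, 5.99, 6.37, 8.17 and 15.65 CPM and the knockouts 0.329, 0.380, 0.542, 0.749 and 1.19 CPM. All but 1 knockout were below every control, and mean CPM was 11.6-fold lower in knockouts (exact two-sided permutation p = 0.0159 on log2 CPM, n = 5). In HFCFD12W+T10W the controls were spread widely, with 0.115, 2.30, 2.625, 5.21 and 22.2 CPM, and the knockouts held 0.0912, 0.0924, 0.253, 0.2615 and 0.6475 CPM. The lowest control, replicate 4, lay among the knockouts, and mean CPM was 24.1-fold lower in knockouts (exact p = 0.0317). Without *Cebpa* fl/fl replicate 1, the mouse at 22.2 CPM, mean CPM was 9.52-fold lower and the exact p was 0.0556, the same p as without knockout replicate 2 or 4. Without knockout replicate 5 it was 37.2-fold lower. In HFCFD2W no library held more than 3 counts, so no fold is given (exact p = 0.0476), and 8 of the 10 tests without 1 mouse missed the threshold (exact p = 0.0635 or 0.0873). Adjusted over the 3 experiments, each exact p was 0.0476. The gene lies on chromosome 18 (67343604 to 67367785, plus strand) and shares 500 bases with *B430212C06Rik* on the other strand.

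*Cideb*, which in hepatocytes also serves the lipidation of very low density lipoprotein, varied little between mice. Its coefficient of variation over the 5 mice of a group was 6.12% to 13.9%. In HFCFD12W+T10W the controls held 160, 174.5, 176, 191 and 199 CPM and the knockouts 125, 139.5, 145, 147.5 and 150.2 CPM. The genotypes did not overlap, and *Cideb* fell 1.24-fold (log2 fold change -0.31, SE 0.08, adjusted p = 0.00528). With library totals alone the sign turned (0.061, adjusted p = 0.508), and mean TPM was 218 ± 22.6 and 227 ± 11.8, a log2 ratio of 0.06 that was 0.31 under the median gene. In HFCFD2W (log2 fold change -0.09, 95% interval -0.24 to 0.06, adjusted p = 0.421) and HFCFD8W+T10D (0.04, 95% interval -0.20 to 0.27, adjusted p = 0.855) it did not pass. It shares 1451 bases with *Nop9* on the other strand.

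*Cidec*, which encodes the CIDE protein of large droplets in adipocytes and steatotic hepatocytes, varied widely between control mice. Controls held 2.43 to 25.7 CPM in HFCFD8W+T10D and 1.61 to 26.6 CPM in HFCFD12W+T10W, and knockouts 6.46 to 17.98 and 4.45 to 10.4 CPM. In both experiments the knockouts lay inside the range of the controls. None of the 3 differences passed, with log2 fold changes of 0.45 (95% interval -0.22 to 1.11, adjusted p = 0.353), -0.28 (-1.24 to 0.68, adjusted p = 0.722) and -0.41 (-1.59 to 0.77, adjusted p = 0.56). The last rests on *Cebpa* fl/fl replicate 1 at 26.6 CPM, without which it was 0.49 (adjusted p = 0.275).

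The lipase and its inhibitor were both lower in HFCFD12W+T10W. *G0s2*, the inhibitor of PNPLA2, held 22.6, 23.7, 27.2, 36.5 and 45.7 CPM in controls and 7.60, 9.68, 10.6, 11.2 and 12.5 CPM in knockouts. The genotypes did not overlap, and *G0s2* fell 2.93-fold (log2 fold change -1.55, SE 0.20, adjusted p = 3.5e-05). In HFCFD2W the controls held 24.7 to 81.5 CPM, while 4 of the 5 *Cebpa* ΔHep mice held 14.03 to 17.6 CPM and replicate 5 held 78.6 CPM. With that mouse the difference did not pass (log2 fold change -0.92, 95% interval -1.96 to 0.12, adjusted p = 0.215), and without it, it did (-1.77, adjusted p = 0.00231). HFCFD8W+T10D showed 23.8 ± 11.3 and 21.3 ± 6.78 CPM (SD, n = 5) in overlapping groups (log2 fold change -0.15, 95% interval -0.86 to 0.56, adjusted p = 0.804). *G0s2* lies wholly inside the span of *Lamb3* on the other strand (chromosome 1, 193272161 to 193273217, minus strand).

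*Pnpla2* itself held 72.7, 78.5, 84.1, 85.3 and 86.3 CPM in controls and 50.3, 51.1, 64.25, 65.9 and 70.6 CPM in knockouts of HFCFD12W+T10W. The groups were apart by a small margin, and *Pnpla2* fell 1.31-fold (log2 fold change -0.39, SE 0.10, adjusted p = 0.00693). With library totals alone the difference did not pass (-0.019, adjusted p = 0.861), and the joint fit gave -0.43 with an adjusted p of 0.0511. Mean TPM was 56.8 ± 3.84 and 54.8 ± 5.91, 0.42 under the median gene on the log2 scale. In HFCFD2W 4 of 5 knockouts were above every control, at 81.5 to 97.5 against 60.4 to 68.7 CPM, and 1, replicate 3, was below every control at 55.55 CPM. The difference just missed the threshold (log2 fold change 0.36, 95% interval 0.10 to 0.62, adjusted p = 0.0584) and passed without that mouse (0.47, adjusted p = 0.00101) or by DESeq2 (0.36, adjusted p = 0.0441). In HFCFD8W+T10D the means were 59.5 ± 20.4 and 58.9 ± 21.2 CPM (log2 fold change -0.01, 95% interval -0.53 to 0.51, adjusted p = 0.988).

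*Fitm2*, the budding factor, fell in both tamoxifen experiments. In HFCFD12W+T10W the controls held 92.5, 97.2, 100.3, 100.8 and 106.6 CPM and the knockouts 53.2, 53.5, 56.8, 64.1 and 64.2 CPM. No mouse came near the other genotype, and *Fitm2* fell 1.65-fold (log2 fold change -0.73, SE 0.07, adjusted p = 6.8e-06). In HFCFD8W+T10D the controls held 62.6, 78.1, 78.3, 85.03 and 128 CPM and the knockouts 47.4, 52.65, 56.5, 59.1 and 60.6 CPM. The highest knockout and the lowest control stood close, without overlap, and *Fitm2* fell 1.55-fold (log2 fold change -0.63, SE 0.16, adjusted p = 0.018), a call lost with library totals alone (-0.46, adjusted p = 0.103). In HFCFD2W it was at 80.9 ± 7.30 and 91.2 ± 16.1 CPM (log2 fold change 0.17, 95% interval -0.07 to 0.42, adjusted p = 0.331). It lies on chromosome 2 (163466379 to 163472629, minus strand) and shares 673 bases with the antisense gene *2310001K24Rik*, which had a mean of 0.2 counts per library.

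**Figure D4:**
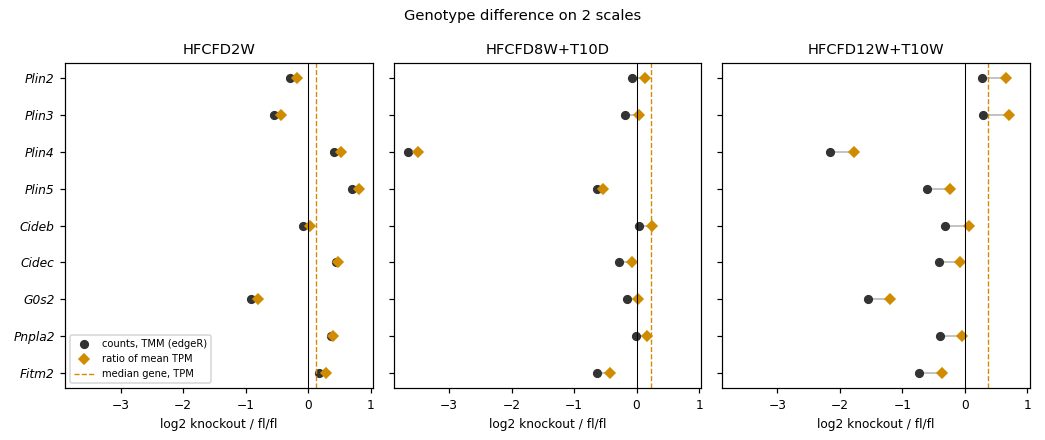
Log2 ratio of knockout over *Cebpa* fl/fl livers for the 9 members tested, from counts with TMM scaling (dark circles) and from mean TPM (orange diamonds); the dashed line is the TPM ratio of the median gene. In HFCFD12W+T10W each TPM ratio lies to the right of the count ratio, and *Cideb* and *Pnpla2* come to lie near 0.

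Whether the genotype effects differed between experiments was tested as an interaction in 1 fit of all 30 libraries, over 12964 genes. Against HFCFD2W, the effect in HFCFD8W+T10D was lower for 3 of the 9 members other than *Cidea*, where 11.2% of genes passed in either direction: *Plin4* by -4.09 (SE 0.59, adjusted p = 3.5e-05), *Fitm2* by -0.82 (SE 0.19, adjusted p = 0.00418) and *Plin5* by -1.35 (SE 0.45, adjusted p = 0.0496), all on the log2 scale. The *Plin5* difference lost its call in 15 of the 20 fits that left out 1 mouse, with adjusted p up to 0.12, and with upper quartile scaling (-1.29, adjusted p = 0.0603). Against HFCFD2W, the effect in HFCFD12W+T10W was lower for *Plin4* (-2.60, SE 0.57, adjusted p = 0.001), *Plin5* (-1.35, SE 0.45, adjusted p = 0.0242), *Fitm2* (-0.94, SE 0.19, adjusted p = 0.00037) and *Pnpla2* (-0.79, SE 0.26, adjusted p = 0.0223) and higher for *Plin3* (0.80, SE 0.20, adjusted p = 0.00273). Those 5 of 9 members stand beside 30.7% of all genes. *Pnpla2* missed the threshold with upper quartile scaling (-0.66, adjusted p = 0.0566) and without knockout replicate 2 or 5 of HFCFD12W+T10W (adjusted p = 0.0516 and 0.0512), and *Plin5* without knockout replicate 1 or 3 or *Cebpa* fl/fl replicate 5 of it (0.0518, 0.0513 and 0.0689). The *Plin2* effect differed by 0.52 (95% interval 0.05 to 0.99, adjusted p = 0.088), and passed without *Cebpa* fl/fl replicate 1 of HFCFD12W+T10W (0.61, adjusted p = 0.0447) or *Cebpa* ΔHep replicate 5 (0.62, adjusted p = 0.0424). These comparisons share the HFCFD2W mice.

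Between the tamoxifen experiments, 1 of the 9 members differed, *Cideb* (-0.37 in HFCFD12W+T10W against HFCFD8W+T10D, SE 0.12, adjusted p = 0.0446), where 10.5% of genes did, and 15 of 20 fits that left out 1 mouse lost that call (adjusted p up to 0.129). The *Plin4* difference of 1.49 (95% interval 0.44 to 2.53, adjusted p = 0.059) and the *G0s2* difference of -1.43 (95% interval -2.63 to -0.23, adjusted p = 0.118) did not pass. For *Plin4*, 5 of the 20 fits without 1 mouse passed, with adjusted p from 0.0177. For *G0s2* against HFCFD2W, the HFCFD8W+T10D effect differed by 0.76 (95% interval -0.40 to 1.93, adjusted p = 0.429), and by 1.60 without replicate 5 of the *Cebpa* ΔHep mice (adjusted p = 0.0207). *Cidea* had too few counts in HFCFD2W for a usable difference of effects.

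The *Cebpa* fl/fl livers by themselves show the droplet genes without the knockout, over experiments that differ in diet time, tamoxifen and batch. From HFCFD2W to HFCFD8W+T10D, 3 of the 9 members other than *Cidea* were higher and 2 lower, where 22.2% of genes were higher and 21.5% lower. *Plin4* was 12.5-fold higher, from 3.78 ± 1.80 to 47.9 ± 25.5 CPM (log2 difference 3.65, SE 0.39, adjusted p = 4.3e-08). *Plin5* was 3.18-fold higher, from 26.8 ± 2.57 to 85.3 ± 37.6 CPM (adjusted p = 0.00014), and *Cidec* 4.62-fold higher, from 2.91 ± 1.36 to 13.3 ± 8.75 CPM (adjusted p = 0.00202). For *Plin4* and *Plin5* no mouse of one experiment overlapped the other, while 1 of the HFCFD8W+T10D mice fell inside the HFCFD2W range of *Cidec*. *Cidea* was at least 17.8-fold higher, from a floor of 3 counts per library (0.416 CPM) to a mean of 7.42 CPM. It is given with no test, since it passed the low-count filter through the groups where it is high. *G0s2* was 2.25-fold lower, from 54.0 ± 24.2 to 23.8 ± 11.3 CPM (adjusted p = 0.0192), and missed the threshold without *Cebpa* fl/fl replicate 1 or 2 of either experiment (adjusted p = 0.0542 to 0.0639). *Cideb* was 1.35-fold lower, from 262 ± 16 to 194 ± 13.6 CPM (adjusted p = 0.00017).

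From HFCFD8W+T10D to HFCFD12W+T10W no member differed between *Cebpa* fl/fl livers by edgeR, where 11.4% of genes did. At an unadjusted p under 0.05, 1 member was higher (*Pnpla2*) and 2 were lower (*Plin3* and *Plin5*), and DESeq2 called 1, *Plin3* (-0.40, adjusted p = 0.0362). *Plin4* was at 33.0 ± 14.1 CPM in HFCFD12W+T10W (log2 difference -0.54, 95% interval -1.19 to 0.11, adjusted p = 0.293). Some calls turned on 1 mouse: without *Cebpa* fl/fl replicate 5 of HFCFD8W+T10D, *Pnpla2* (0.68, adjusted p = 0.00874) and *Fitm2* (0.39, adjusted p = 0.0207) were higher. *Plin3* was lower without replicate 3 of HFCFD8W+T10D (-0.49, adjusted p = 0.023) or replicate 2 of HFCFD12W+T10W (-0.45, adjusted p = 0.0491). *Plin5* was lower without replicate 5 (-0.97, adjusted p = 0.0476) and *Cidec* without replicate 1 (-1.49, adjusted p = 0.0337) of HFCFD12W+T10W. The HFCFD8W+T10D controls also enter the comparison with HFCFD2W.

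The genes whose group means moved most like a member are given as a description, by the Euclidean distance between centred mean log2 CPM over the 6 groups among 12963 other genes. The distance is not scaled to how much a gene varies over the groups. A gene with large differences, such as *Plin4*, therefore tends to lie farther from others, and distances are not compared between members. Nearest to *Plin4* were *Ptgds* (1.284), *Ptp4a1* (1.418) and *Kcnt1* (1.512). *Ptgds* ran from 0.303 CPM in HFCFD2W controls to 8.63 and 15.4 CPM in the other controls, with 1.04 and 3.27 CPM in their knockouts. *G0s2* was nearest to *Abcg5* (0.531), *Slc2a4* (0.536) and *Apon* (0.549), and *Plin5* to *P4ha2* (0.341), *Rbm12b1* (0.373) and *Slc45a3* (0.384). *Fitm2* was nearest to *Mtx3* (0.101), *Rab43* (0.159) and *Acot12* (0.172), of which *Acot12* went from 161 CPM in controls to 81.7 CPM in knockouts of HFCFD12W+T10W. *Cideb* was nearest to *Ndufv3* (0.092), *Ndufb5* (0.109) and *Ppdpf* (0.109). *Pnpla2* was nearest to *Mdm4* (0.094), *Efcab2* (0.128) and *Rsrc1* (0.159). *Plin3* was nearest to *Glud-ps* (0.152), *Tmem101* (0.168) and *Sp1* (0.193).

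The other genes of droplet formation and triglyceride synthesis were a list of 19 without the members. In HFCFD12W+T10W, 12 of 19 fell and 4 rose, beside 23.8% and 27.4% of all genes tested. The median log2 fold change was -0.44 against 0.01 for all genes tested. With library totals alone 8 fell and 6 rose (median -0.07), beside 962 and 7049 of 12463 genes. Over 2-fold falls were those of *Acsl1*, a long-chain acyl-CoA synthetase (1395 ± 400 to 322 ± 70.5 CPM, log2 fold change -2.07), *Fitm1*, the sister gene of *Fitm2* (-1.36), and *Gpat4* (-1.15) and *Gpat3* (-1.03), acyltransferases of the first step of glycerolipid synthesis. *Tmem159*, which encodes a partner of seipin, rose (1.40). In HFCFD8W+T10D, 7 of 19 fell and 1 rose (median -0.24), beside 6.85% and 10.3% of genes. With library totals alone 5 fell and 3 rose, beside 382 and 2023 of 11990 genes. Over 2-fold falls were those of *Acsl1* (-1.46), *Lpin2*, a phosphatidate phosphatase (-1.26), and *Mogat1*, a monoacylglycerol acyltransferase (-1.61, from 2.49 ± 1.37 to 0.778 ± 0.615 CPM, adjusted p = 0.0471). *Mogat1* was near the low-count filter in those knockouts, so it entered that test mainly through the controls. In HFCFD2W, 6 of 17 fell and 3 rose (median -0.11), and 1 rose over 2-fold, *Lpin1* (181 ± 99.3 to 786 ± 205 CPM, log2 fold change 2.12), which in turn fell by 0.87 on the log2 scale in HFCFD12W+T10W. Over 2-fold rises made up 1.69% and falls 1.38% of genes in HFCFD2W, where 8.09% of genes fell and 8.6% rose by any fold. In HFCFD8W+T10D and HFCFD12W+T10W, 4.09% and 14.3% of genes rose over 2-fold, and 2.01% and 3.47% fell over 2-fold.

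Of 13 other genes of lipolysis and lipophagy, 11 were tested in each experiment. In HFCFD12W+T10W, 5 fell and 2 rose (median -0.09), beside 23.8% and 27.4% of all genes tested. With library totals alone 3 fell and 6 rose (median 0.28), beside 962 and 7049 of 12463 genes. The over 2-fold falls were those of the droplet-linked carboxylesterases *Ces1f* (-1.39) and *Ces1d* (-1.23) and of *Mgll*, the monoacylglycerol lipase of the last step (-1.08). In HFCFD8W+T10D, 2 fell and 3 rose (median -0.12, and 0.06 with library totals alone), beside 6.85% and 10.3% of genes. In HFCFD2W 2 fell and 1 rose (median -0.08), beside 8.09% and 8.6% of genes. *Ces1d* was the 1 that rose there (0.79), from 408 ± 62.3 to 707 ± 278 CPM.

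Among 20 other droplet surface proteins tested, 10 fell and 3 rose in HFCFD12W+T10W (median -0.24), beside 23.8% and 27.4% of all genes tested. With library totals alone 2 fell and 9 rose (median 0.13), beside 962 and 7049 of 12463 genes. In HFCFD8W+T10D 4 fell and 4 rose, beside 6.85% and 10.3% of genes. With library totals alone 0 fell and 5 rose there, beside 382 and 2023 of 11990 genes. In HFCFD2W 3 fell and 3 rose, beside 8.09% and 8.6% of genes. Over 2-fold rises in this list were those of *Smpdl3b* in all 3 experiments (3.25, 3.09 and 1.63) and of *Sqle*, squalene epoxidase of cholesterol synthesis, in both tamoxifen experiments. *Sqle* rose by 2.92 (SE 0.63) in HFCFD8W+T10D, from 0.571 ± 0.294 to 4.27 ± 3.94 CPM, with a wide spread between knockouts. In HFCFD12W+T10W it rose by 4.42, from 0.688 ± 0.495 to 14.3 ± 5.57 CPM. Its controls were near the low-count filter, so it entered these tests mainly through the knockouts. *Smpdl3b* encodes a membrane-bound phosphodiesterase. The paper ties that enzyme to lipid drop formation, not to the droplet surface, and had already reported its mRNA as raised in HFCFD-fed *Cebpa* ΔHep livers. Its rise was thus known before the list was made, and it is among the genes counted as risen in each experiment. *Plin1*, the adipocyte perilipin, was at 0 counts in every library.

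Of 13 factors known to act on droplet genes, *Cebpa* among them, 10 of 13 tested fell and 1 rose in HFCFD12W+T10W (median -0.54). There 23.8% of all genes tested fell and 27.4% rose. With library totals alone 5 fell and 3 rose (median -0.17), beside 962 and 7049 of 12463 genes. *Cebpa* is the deleted gene, so its fall was set by the design, and it is part of the counts and medians of this list in each experiment. Beside *Cebpa*, *Mlxipl*, the carbohydrate-responsive factor ChREBP, fell over 2-fold (-1.37). *Prdm16*, a factor of brown fat, went from 0.336 ± 0.239 to 1.74 ± 0.0886 CPM and was the 1 counted as risen. It passed the low-count filter only in this experiment, through the knockout livers where it is high, so its rise is not read as a result. In HFCFD8W+T10D, 5 of 12 fell and none rose (median -0.41), beside 6.85% and 10.3% of genes, and *Cebpa* was the 1 over 2-fold. With library totals alone 2 fell there, beside 382 of 11990 genes. In HFCFD2W, 5 of 12 fell and 2 rose (median -0.14), beside 8.09% and 8.6% of genes. *Srebf1*, a driver of lipid synthesis, fell over 2-fold there (-1.18), and *Cebpb* rose (1.11). *Pparg*, which acts on *Cidec*, *Cidea* and *Plin4* in adipocytes, fell by 0.73 on the log2 scale in HFCFD8W+T10D (13 ± 3.93 to 7.72 ± 1.80 CPM, adjusted p = 0.0409). It did not pass in HFCFD12W+T10W (0.21, 11.7 ± 2.74 to 13.1 ± 1.38 CPM, adjusted p = 0.249) or in HFCFD2W (-0.04, adjusted p = 0.908). *Ppara*, the fasting receptor of hepatocytes, fell by 0.60 in HFCFD8W+T10D and by 0.93 in HFCFD12W+T10W, and did not pass in HFCFD2W (-0.17, adjusted p = 0.43). These list genes were tested by the edgeR fits described for the members.

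**Figure D5:**
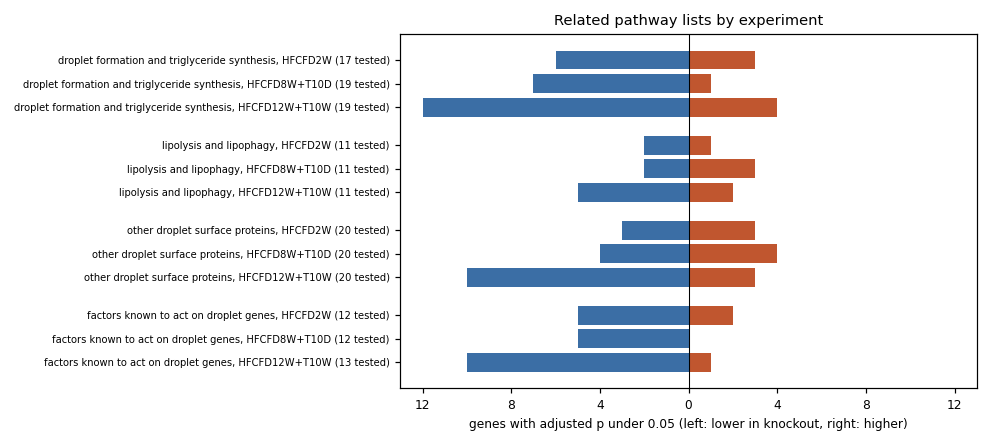
Number of genes of each list with an adjusted p under 0.05, lower (left, blue) or higher (right, orange) in knockout livers with TMM scaling, by experiment; the number tested stands in each label. The bars to the left are longest in HFCFD12W+T10W, with 12, 5, 10 and 10 genes lower, where 23.8% of all genes tested were lower. The list of factors counts *Cebpa*, the deleted gene, in each experiment.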

How the data were processed

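Poly(A) RNA of 30 mouse livers was sequenced from stranded libraries, 1 per mouse. The authors deposited RSEM expected counts per gene (11.3% of values above 0 were not whole), TPM and FPKM. The processing notes name Trimmomatic 0.36, STAR 2.5.1, RSEM 1.2.22, Picard 1.84, DESeq2 and mm10, and gene IDs match GENCODE M21. The strand setting used in counting is not given in the sources used here, so members that overlap a gene on the other strand are named as such. The authors' filtered table of scaled values was not used. FPKM gave the same kind of levels as TPM and are not printed.

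Expected counts were rounded and tested with edgeR 4.0.16 (R 4.3.3): filterByExpr, TMM, quasi-likelihood test, Benjamini-Hochberg over all genes, each experiment alone, with a joint fit for differences between experiments. *Cidea*, below the filter, and *Cebpa* were tested by exact two-sided permutation of log2 CPM (prior count 2, 252 arrangements). Scripts were tested on simulated data. Alternatives were DESeq2 1.42.0, limma 3.58.1 on log2(CPM + 1), upper quartile scaling, no low-count filter, a replicate block, the joint fit, each mouse left out and, added after the data were seen, library totals alone. The genes named are the members, list genes past an adjusted p of 0.05 and a fold of 2 (with *Pparg* and *Ppara* also named after their values were seen), the 3 nearest genes of members that passed, and overlapping genes. Members and lists were chosen with earlier results of these data known. Depth was 7996128 to 10257366 counts per library.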

Additional observations from a re-analysis of the deposited data

Results flagged for a closer look

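The 58 groups of 5 mice were screened on log2 CPM, by the gap of a mouse to the next over the range of its group. In 3 groups this was above Dixon's 95% critical value of 0.71, and chance alone gives about 1 in 20. On the CPM scale, on which values are printed here, other mice can stand out. *Cebpa* fl/fl replicate 3 of HFCFD2W was the lowest for *Cideb*, the hepatocyte CIDE gene, at 234.2 CPM. *Cebpa* ΔHep replicate 5 of HFCFD2W was the highest for *G0s2*, the lipase inhibitor, at 78.58 CPM, with the other 4 knockouts at 14.03 to 17.6 CPM. *Cebpa* fl/fl replicate 5 of HFCFD8W+T10D was the highest for *Pnpla2*, the lipase, at 95.23 CPM, with the other 4 controls at 46.6 to 55.8 CPM.

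Genotype effects differed between experiments by the interaction term of the joint edgeR fit for these members, as log2 differences. From HFCFD2W to HFCFD8W+T10D the effect was lower by -4.09 for *Plin4*, -1.35 for *Plin5* and -0.82 for *Fitm2*. From HFCFD2W to HFCFD12W+T10W it was lower by -2.60 for *Plin4*, -1.35 for *Plin5*, -0.79 for *Pnpla2* and -0.94 for *Fitm2*, and higher by 0.80 for *Plin3*. From HFCFD8W+T10D to HFCFD12W+T10W it was lower by -0.37 for *Cideb*. Diet time, tamoxifen, Cre strain and batch cannot be told apart in these differences.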

How the results depend on the processing

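The falls of *Plin4* in both tamoxifen experiments and of *G0s2* in HFCFD12W+T10W kept their direction and call under each alternative run, and that of *Fitm2* in HFCFD12W+T10W under each but the 2-fold limit. Counts of members that passed moved as follows. In HFCFD2W, 1 rose, against 2 by DESeq2, 2 with library totals alone, 0 in the joint fit and 0 over 2-fold, and 1 fell, against 0 over 2-fold. In HFCFD8W+T10D 2 fell, against 1 with library totals alone and 1 over 2-fold. In HFCFD12W+T10W none rose, against 1 with upper quartile scaling, 2 with library totals alone and 1 by limma, and 5 fell, against 3 with library totals alone and 2 over 2-fold. Differences of effect from HFCFD2W to HFCFD12W+T10W had 1 member higher, or 2 with upper quartile scaling, and those from HFCFD8W+T10D to HFCFD12W+T10W had 1 lower, or 0 with upper quartile scaling and 0 without the low-count filter. Between *Cebpa* fl/fl livers of the tamoxifen experiments 0 were lower, or 1 by DESeq2 and 1 with upper quartile scaling. *Cidea* in HFCFD2W gave -2.33 without the filter (adjusted p = 0.188). The cause of these changes was not tested.

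Some differences that missed the threshold changed sign. In HFCFD8W+T10D, library totals alone gave 0.099 for *Plin2*, 0.0072 for *G0s2* and 0.13 for *Pnpla2*, for which upper quartile scaling gave 0.028. In HFCFD12W+T10W, *Cidec* gave 0.043 by limma. For the difference from HFCFD8W+T10D to HFCFD12W+T10W, *Plin5* gave 0.0027 by DESeq2, 0.068 with upper quartile scaling, 0.0049 without the filter and 0.067 by limma, and *Cidec* 0.056 by limma. The fall of *Cideb* in HFCFD12W+T10W, which had passed, gave 0.061 with library totals alone.

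With each mouse left out, members that passed ranged from 1 to 2 higher and 1 to 3 lower in HFCFD2W, 2 to 4 lower in HFCFD8W+T10D (4 without knockout replicate 4) and 0 to 2 higher in HFCFD12W+T10W. Differences of effect ranged from 0 to 1 higher and 2 to 3 lower (HFCFD8W+T10D against HFCFD2W), 1 to 2 higher and 3 to 4 lower (HFCFD12W+T10W against HFCFD2W), and 0 to 1 higher and 0 to 1 lower (HFCFD12W+T10W against HFCFD8W+T10D). Between *Cebpa* fl/fl livers they ranged from 1 to 3 lower (HFCFD8W+T10D against HFCFD2W), and from 0 to 2 higher and 0 to 1 lower (HFCFD12W+T10W against HFCFD8W+T10D). *Cidea* ranged from -0.88 to -0.53 in HFCFD2W and from -3.59 to -2.07 in HFCFD12W+T10W. Ranges that crossed 0 in HFCFD8W+T10D were -0.18 to 0.12 for *Plin2*, -0.043 to 0.092 for *Cideb*, -0.55 to 0.11 for *Cidec*, -0.35 to 0.018 for *G0s2* and -0.25 to 0.23 for *Pnpla2*, and -0.68 to 0.49 for *Cidec* in HFCFD12W+T10W. For HFCFD12W+T10W against HFCFD2W they were -1.16 to 0.012 for *Cidec* and -0.87 to 0.17 for *G0s2*, and against HFCFD8W+T10D -0.26 to 0.44 for *Plin5* and -0.52 to 0.76 for *Cidec*. Between *Cebpa* fl/fl livers they were -0.051 to 0.15 for *Plin3* and -0.07 to 0.19 for *Fitm2* (HFCFD8W+T10D against HFCFD2W), and -0.18 to 0.13 for *Plin2* and -1.53 to 0.26 for *Cidea* (HFCFD12W+T10W against HFCFD8W+T10D).

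Same-numbered mice did not deviate together (correlations of -0.23 to 0.07 in HFCFD2W, -0.10 to 0.15 in HFCFD8W+T10D and -0.09 to 0.16 in HFCFD12W+T10W), so the numbers do not pair them. With the replicate block, 0 members fell in HFCFD2W (*Plin3* -0.46, adjusted p = 0.113) and 1 rose in HFCFD12W+T10W (*Plin3* 0.30, adjusted p = 0.0396), where *Plin5* gave -0.60 (adjusted p = 0.0363). Over all genes of HFCFD2W, 374 rose and 350 fell with the block, against 952 and 895 without it. In the joint fit, 1976 genes rose and 1541 fell in HFCFD8W+T10D, and without *Cebpa* fl/fl replicate 4 of it 791 rose in its own fit.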

Other observations

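Single mice stood high or low for many droplet genes together. *Cebpa* fl/fl replicate 5 of HFCFD8W+T10D was the highest of its 5 controls for 8 of the 10 members (*Plin2*, *Plin3*, *Plin4*, *Plin5*, *Cidec*, *G0s2*, *Pnpla2* and *Fitm2*), and replicate 3 of that group was the lowest for 7. In HFCFD12W+T10W, *Cebpa* fl/fl replicate 4 was the lowest for 7 members and replicate 1 the highest for 5, among them *Cidea* at 22.2 CPM and *Cidec* at 26.6 CPM. Knockout replicate 4 of HFCFD8W+T10D was the highest of its group for 6 members and *Cebpa* ΔHep replicate 5 of HFCFD2W for 5. These counts are descriptions over genes that share a library.

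The spread between control mice differed by gene. The coefficient of variation in *Cebpa* fl/fl livers of HFCFD12W+T10W was 138% for *Cidea*, 110% for *Cidec* and 42.9% for *Plin4*, against 8.44% for *Cideb*, 7% for *Pnpla2* and 5.19% for *Fitm2*. In the knockout livers of that experiment it was 84.4% for *Cidea*, 35.8% for *Cidec* and 27.8% for *Plin4*.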
